A study of Mus musculus with 6 samples.

Results

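Double-stranded RNA in the cytosol or in endosomes is a mark of virus replication, and cells carry several proteins that bind it. The helicases RIG-I (Ddx58) and MDA5 (Ifih1) signal through the mitochondrial adaptor MAVS to the kinase TBK1 and the factors IRF3 and IRF7, which switch on interferon genes. Fibroblasts use this helicase route for most of their response to RNA viruses, and many of its genes are themselves induced by interferon. The 9 genes described here are Ddx58, Ifih1, Dhx58, Mavs, Tlr3, Trim25, Adar, Eif2ak2 and Zbp1, chosen as a pathway list and found by symbol in a table of 23842 genes. All 9 were in the table, and all 9 were among the 15039 genes with enough reads to be tested.

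Total RNA had been sequenced from cultured mouse embryonic fibroblasts of the strain C57BL/6. The knockout-labelled group held 3 libraries with the genotype NGLY1-/-, and the wild-type group held 3 libraries with the genotype WT. NGLY1 is the cytosolic enzyme that removes N-linked sugars from misfolded glycoproteins. Both groups were left untreated in serum-containing medium rich in glucose, and the labels give neither the age of the embryos nor the design of the deleted allele. They also do not say whether libraries of a group came from separate embryos. The p-values therefore reflect only how these samples vary, and that variation may be technical.

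Library totals ran from 27323577 to 37841558 counts, and wild-type replicate 3 had the smallest. Ngly1 itself, counted over the whole gene, stood at 14.6 ± 3.11 CPM (counts scaled to a common library total; SD, n = 3) in the knockout-labelled group and 14.6 ± 2.94 CPM in wild type. That count does not check the genotype, so each direction below rests on the labels. The 10 fibroblast markers summed to 10614 to 11837 CPM in the knockout-labelled libraries and 8215 to 9215 CPM in wild type, with 2 called higher and 6 lower. The higher sum rests on Fn1 (7151 ± 529 against 2092 ± 245 CPM, SD, n = 3). Without it the other 9 summed to 3763 to 4313 CPM against 6119 to 6880 CPM. Vim, S100a4, Pdgfrb, Pdgfra, Thy1 and Col1a2 were the lower ones, with Col1a2 overlapping between the groups. Dcn was also called higher (15.7 ± 1.54 against 3.36 ± 1.39 CPM), and Col1a1 and Col3a1 were not called. The 10 leukocyte markers found in the table summed to 2.98 to 3.50 CPM and 3.15 to 4.37 CPM. Only 2 of them, Cd68 and Flt3, had enough reads to be tested, and 0 were called in either direction. Cd68 carried most of each sum, with 255 counts over the knockout-labelled libraries and 272 over wild type. Flt3 (46 against 44), Fcer1g (24 against 11), Csf1r (7 against 22), Spi1 (1 against 23) and Itgam (3 against 7) were also counted. The pan-leukocyte gene Ptprc, the macrophage gene Aif1 and the B cell gene Cd79a had 0 counts over the knockout-labelled libraries, and the myeloid gene Lyz2 had 0 over wild type. The 5 endothelial markers summed to 2.73 to 2.89 CPM against 1.77 to 2.23 CPM. Kdr (224 against 118 counts over a group) and Tek (53 against 23) carried that difference, while Pecam1 (2 against 27), Erg (2 against 27) and Cdh5 (6 against 17) went the other way. The 6 epithelial markers summed to 0.731 to 1.56 CPM against 1.90 to 2.62 CPM. Krt8 (4 against 104 counts over a group), Cdh1 (25 against 75) and Cldn4 (2 against 14) carried that difference. Epcam (11 against 2), Esrp1 (9 against 1) and Krt18 (70 against 63) went the other way. Only 3 of the 6 were tested, and 2 of these, Krt8 and Cdh1, were called lower. In a bulk sample, fewer cells of a type and less RNA per cell cannot be told apart.

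Of the 9 genes, 7 were higher in the knockout-labelled libraries and 0 were lower (edgeR quasi-likelihood test, Benjamini-Hochberg threshold 0.05). Among all 15039 tested genes, 30.7% were called higher, 30.2% lower and 60.9% in either direction, so a single call is common in this comparison. All 7 rose by more than 2-fold, against 13.6% of all tested genes. The median log2 fold change of the 9 genes was 2.30, and that of all tested genes was -0.04. The other genes, Mavs and Trim25, did not pass the test. For 8 of the 9 genes every knockout-labelled library was above every wild-type library. Of all tested genes, 33.8% were separated in that direction and 67.3% in either.

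**Figure D1:**
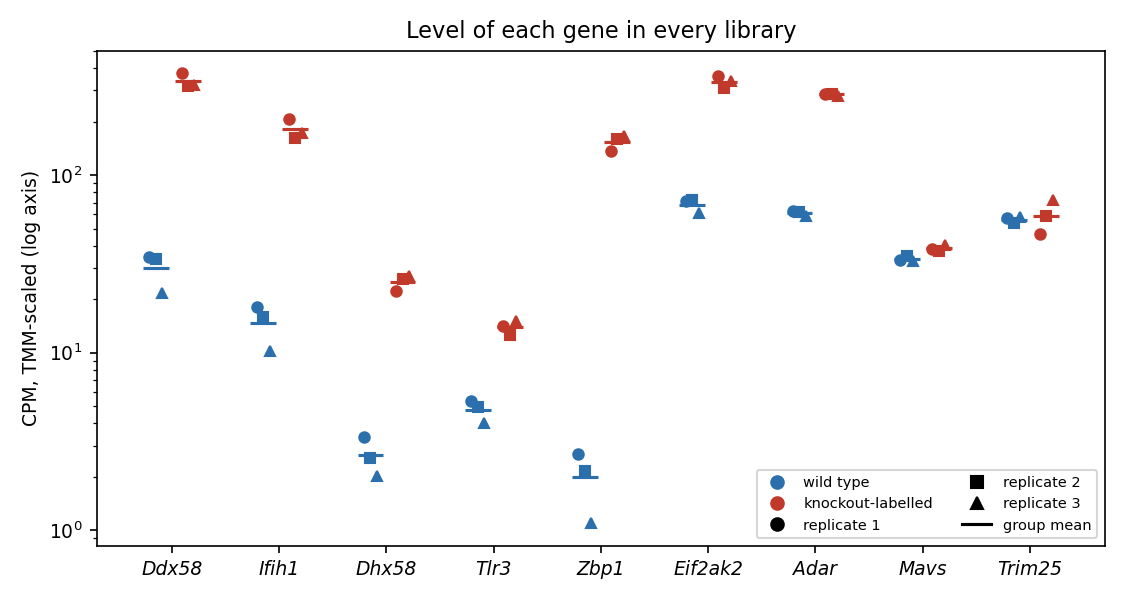
Level of the 9 genes in CPM (log axis) in each of the 6 libraries, blue for wild type and red for knockout-labelled; marker shapes give the replicate and bars the group mean. The groups are separated for every gene but Trim25, and the distance is smallest for Mavs.

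Promoter sequence is shown first, because an interferon-responsive element is the feature that genes of this pathway are best known to share. RefSeq sequences (GRCm38.p6) covering 250 bases before to 50 bases after a start site matched 7 of the 9 genes, the others being Dhx58 and Zbp1, and Adar had 3 start sites. The core of the interferon-stimulated response element (ISRE) was searched as TTTC, any 2 bases, TTTC, or on the other strand GAAA, any 2 bases, GAAA. It was present in 3 of the 9 windows, those of Ddx58, Ifih1 and Eif2ak2, and in 3.44% of all 32851 promoter windows. In each of the 3 it lay just after the start site, at positions 3 to 12 in Ddx58, 33 to 42 in Ifih1 and 19 to 28 in Eif2ak2, counted from 1 at the first transcribed base. The 30 bases around each match are given 5′ to 3′ on the gene's strand, which is minus for all 3, with the matched letters in capitals.
Ddx58, chr4:40239804-40239833: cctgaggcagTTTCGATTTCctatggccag
Ifih1, chr2:62646206-62646235: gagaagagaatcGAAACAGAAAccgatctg
Eif2ak2, chr17:78882535-78882564: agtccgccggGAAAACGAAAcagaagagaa

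The palindromic core of the gamma-activated site (GAS), TTCNNNGAA, which reads the same on both strands, was present in 2 of the 9 windows and in 8.30% of all windows. The Eif2ak2 window holds it at positions -178 to -170, and the third listed start site of Adar at positions 23 to 31 on the plus strand. No window held an overlap of the ISRE and GAS cores.
Eif2ak2, chr17:78882731-78882760: ctgcagagctTTCCCAGAAtggaagccagg
Adar, chr3:89730730-89730759: gggaagccttTTCAAGGAAacgaaagtgaa

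Neither core was found in the windows of Mavs and Trim25, the 2 genes that did not pass the test, nor in that of Tlr3, which did. The 150 bases before their start sites are given for comparison, with Mavs and Trim25 on the plus strand and Tlr3 on the minus strand. A match describes letters only, and its absence concerns only exact letters in this window. Near matches were not counted, such as tttcactttg in the Tlr3 stretch and gttcagtttc at the end of the Trim25 stretch. The Adar stretch above also holds one, ggaaacgaaa. Such near matches thus occurred both in genes that passed the test and in one that did not. The Tlr3 window, at 45410331 to 45410630, also lies inside the range of the gene, which ends at 45411075. Bases around that end were not searched.
Mavs, chr2:131233913-131234062: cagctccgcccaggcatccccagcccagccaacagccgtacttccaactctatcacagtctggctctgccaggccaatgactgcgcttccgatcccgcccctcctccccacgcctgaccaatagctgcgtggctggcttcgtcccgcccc
Trim25, chr11:88999253-88999402: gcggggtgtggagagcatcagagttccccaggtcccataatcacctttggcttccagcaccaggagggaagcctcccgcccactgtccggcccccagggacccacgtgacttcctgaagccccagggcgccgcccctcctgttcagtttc
Tlr3, chr8:45410381-45410530: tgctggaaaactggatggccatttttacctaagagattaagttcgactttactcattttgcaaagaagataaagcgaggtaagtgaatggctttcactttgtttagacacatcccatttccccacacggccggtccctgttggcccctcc

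The 3 cytosolic helicases rose together. Ddx58 (gene ID 230073; chromosome 4, 40203777 to 40239825 in GRCm38), which encodes RIG-I, the sensor of RNA ends that carry a 5′ triphosphate, stood at 374, 318 and 322 CPM in knockout-labelled replicates 1, 2 and 3. In wild type it stood at 34.4, 33.8 and 21.6 CPM. The lowest knockout-labelled library was far above the highest wild-type library, and wild-type replicate 3 was the lowest of its group. The rise was 11.3-fold (95% interval 8.47 to 15; log2 fold change 3.49, SE 0.18; adjusted p = 4.84e-07).

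Ifih1 (gene ID 71586; chromosome 2, 62595618 to 62646255), which encodes MDA5, the sensor of long double-stranded RNA, stood at 207, 162 and 173 CPM against 18.2, 15.8 and 10.3 CPM. It was separated between the groups in the same way, and wild-type replicate 3 was again the lowest library. The rise was 12.2-fold (8.79 to 16.8; log2 fold change 3.60, SE 0.21; adjusted p = 1.29e-06).

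Dhx58 (gene ID 80861; chromosome 11, 100694884 to 100704271) encodes LGP2, a helicase without the signalling domains of the other two, which modulates their output. Its level was 22.2, 25.9 and 26.9 CPM against 3.37, 2.54 and 2.01 CPM, again without overlap. The rise was 9.35-fold (6.98 to 12.5; log2 fold change 3.23, SE 0.19; adjusted p = 5.36e-07). The intervals of the 3 helicases overlap one another.

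Ratios of counts within a library do not depend on how libraries are scaled, and 9 were compared by an exact permutation test, which with 3 libraries against 3 cannot give a p below 0.1. Ifih1 had 0.553, 0.509 and 0.538 counts per Ddx58 count in the knockout-labelled libraries and 0.528, 0.469 and 0.476 in wild type. These ranges overlap (exact two-sided p = 0.2, adjusted over the 9 ratios p = 0.257). Dhx58 counts per Ifih1 count were 0.108, 0.160 and 0.155 against 0.186, 0.161 and 0.197. Here every knockout-labelled library was lower (exact p = 0.1, adjusted p = 0.15), with a gap between the groups that was small beside their spread. The ratio of Dhx58 to Ddx58 overlapped between the groups (exact p = 0.3, adjusted p = 0.338).

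**Figure D2:**
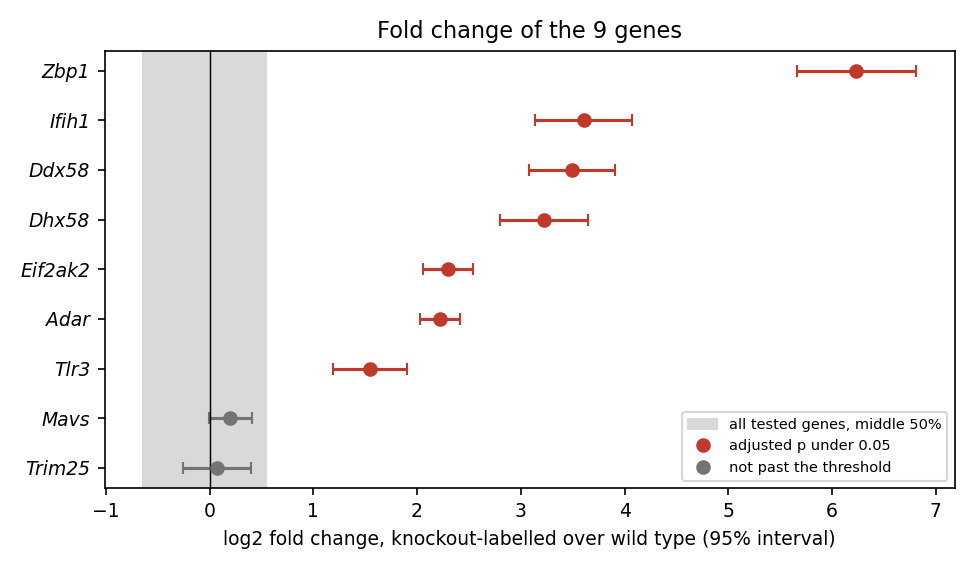
Log2 fold change of each gene, knockout-labelled over wild type, with its 95% interval from the edgeR fit; the grey band holds the middle 50% of all 15039 tested genes. Zbp1 is farthest to the right at 6.23, 6 further genes lie between 1.55 and 3.60, and Mavs (0.20) and Trim25 (0.07) lie inside the band.

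Tlr3 (gene ID 142980; chromosome 8, 45395665 to 45411075) encodes the endosomal receptor of double-stranded RNA, which signals through TRIF rather than MAVS. It stood at 14.2, 12.6 and 15.2 CPM in the knockout-labelled libraries and at 5.36, 4.93 and 4.02 CPM in wild type. The groups did not overlap. The rise was 2.92-fold (2.28 to 3.74; log2 fold change 1.55, SE 0.16; adjusted p = 2.32e-05), and its interval lay below that of each of the 3 helicases.

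Zbp1 (gene ID 58203; chromosome 2, 173206612 to 173218959), which encodes a sensor of left-handed Z-form nucleic acid that triggers necroptosis, changed most of the 9. Its raw counts were 110, 84 and 30 in wild type and 4651, 5235 and 5888 in the other group. In CPM these were 137, 160 and 166 against 2.70, 2.16 and 1.10, so that the gene was close to silent in wild type. The rise was 75.3-fold (50.5 to 112; log2 fold change 6.23, SE 0.25; adjusted p = 1.87e-07). Without wild-type replicate 3, its lowest library, the rise was 63.9-fold. Zbp1 counts per Eif2ak2 count went from 0.038, 0.030 and 0.018 in wild type to 0.382, 0.519 and 0.489 (exact p = 0.1, adjusted p = 0.15), a 16.7-fold difference that scaling cannot affect.

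The adaptor and the ubiquitin ligase of the helicase route behaved differently from the sensors. Mavs (gene ID 228607; chromosome 2, 131234063 to 131248025), which encodes the mitochondrial protein on which RIG-I and MDA5 converge, stood at 38.4, 37.4 and 40.3 CPM in the knockout-labelled libraries and 33.3, 34.9 and 32.7 CPM in wild type. The groups were separated by a small gap, but the difference did not pass the test (log2 fold change 0.20, SE 0.09; 95% interval -0.01 to 0.41; adjusted p = 0.0894). That interval excludes a change of the size seen in any of the 7 genes that passed. Each Mavs count was accompanied by 9.74, 8.51 and 7.99 Ddx58 counts in the knockout-labelled libraries, against 1.04, 0.968 and 0.661 in wild type. For Ifih1 the corresponding ratios to Mavs were 5.38, 4.33 and 4.30 against 0.547, 0.453 and 0.314 (exact p = 0.1 and adjusted p = 0.15 for both ratios). The ratios of Ddx58 and Ifih1 to Mavs were thus 10.0-fold and 10.9-fold higher in the knockout-labelled libraries.

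Trim25 (gene ID 217069; chromosome 11, 88999403 to 89020294) encodes a ubiquitin ligase known for its part in RIG-I activation. It stood at 46.3, 58.8 and 72.3 CPM in the knockout-labelled libraries and 57.0, 53.8 and 57.7 CPM in wild type. The knockout-labelled libraries lay on both sides of the wild-type ones, with an SD of 13.0 CPM against 2.09 CPM. The log2 fold change was 0.07 (SE 0.15; 95% interval -0.25 to 0.40; adjusted p = 0.676), and its sign turned to -0.08 without knockout replicate 3, to -0.04 when scaled by library totals only and to -0.06 without both libraries numbered 3. Ddx58 counts per Trim25 count were 8.07, 5.41 and 4.45 against 0.604, 0.628 and 0.375 (exact p = 0.1, adjusted p = 0.15).

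The RNA-dependent kinase and the RNA editing enzyme rose by nearly the same factor. Eif2ak2 (gene ID 19106; chromosome 17, 78850504 to 78882572) encodes PKR, which on binding double-stranded RNA phosphorylates the initiation factor eIF2 alpha and slows translation. It stood at 359, 307 and 339 CPM against 71.4, 71.9 and 61.0 CPM, without overlap. The rise was 4.92-fold (4.16 to 5.82; log2 fold change 2.30, SE 0.11; adjusted p = 1.49e-07). A pseudogene of Eef1a1, Gm6548, lies inside the gene's range at 78850504 to 78852544 on the same strand, and it rose 2.93-fold from 4041 counts over wild type to 11444. How reads of that stretch were shared between the pair is not known, and with the counts of both added, an alternative chosen after seeing the data, the rise was 2.07 on the log2 scale.

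Adar (gene ID 56417; chromosome 3, 89714469 to 89753455) encodes ADAR1, which converts adenosine to inosine in double-stranded RNA and so keeps self RNA from activating MDA5 and PKR. It stood at 286, 287 and 280 CPM against 62.4, 62.0 and 59.1 CPM. On the log2 scale these were the tightest groups of the 7 genes that rose (SD 0.02 and 0.04). The rise was 4.65-fold (4.07 to 5.31; log2 fold change 2.22, SE 0.09; adjusted p = 5.21e-08). ADAR1 is made as a long interferon-inducible form and a short constitutive form from different start sites, which a count per gene cannot separate. There were 1.25, 1.07 and 1.21 Eif2ak2 counts per Adar count in the knockout-labelled libraries and 1.15, 1.16 and 1.03 in wild type, ranges that overlap (exact p = 0.4, adjusted p = 0.4).

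Levels can be compared between genes only per length, and CPM per kilobase of merged GENCODE exons was used for this. In wild type the order was led by Eif2ak2 at 13.3 ± 1.21 CPM per kilobase (SD, n = 3), followed by Mavs at 10.1 ± 0.338, Trim25 at 9.76 ± 0.362 and Adar at 7.53 ± 0.218. Ddx58 at 4.25 ± 1.02 and Ifih1 at 1.81 ± 0.497 came next. Tlr3 at 0.916 ± 0.131, Dhx58 at 0.807 ± 0.209 and Zbp1 at 0.563 ± 0.231 were last. Mavs and Trim25 overlapped, as did Tlr3 with Dhx58 and Dhx58 with Zbp1, while the other neighbours in this order did not.

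In the knockout-labelled libraries Eif2ak2 stayed first at 65.6 ± 5.16 CPM per kilobase. Ddx58 at 47.9 ± 4.44 and Zbp1 at 43.7 ± 4.29 were next and overlapped. Adar at 35.0 ± 0.490 and Ifih1 at 22.1 ± 2.87 followed, each apart from its neighbours. Mavs at 11.6 ± 0.439, Trim25 at 10.3 ± 2.26 and Dhx58 at 7.64 ± 0.745 came below them. Trim25 overlapped both Mavs and Dhx58, and Tlr3 was last at 2.69 ± 0.244, apart from Dhx58. Ddx58, Zbp1, Ifih1 and Adar therefore moved from below Mavs to above it, and Zbp1 moved from rank 9 to rank 3.

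**Figure D3:**
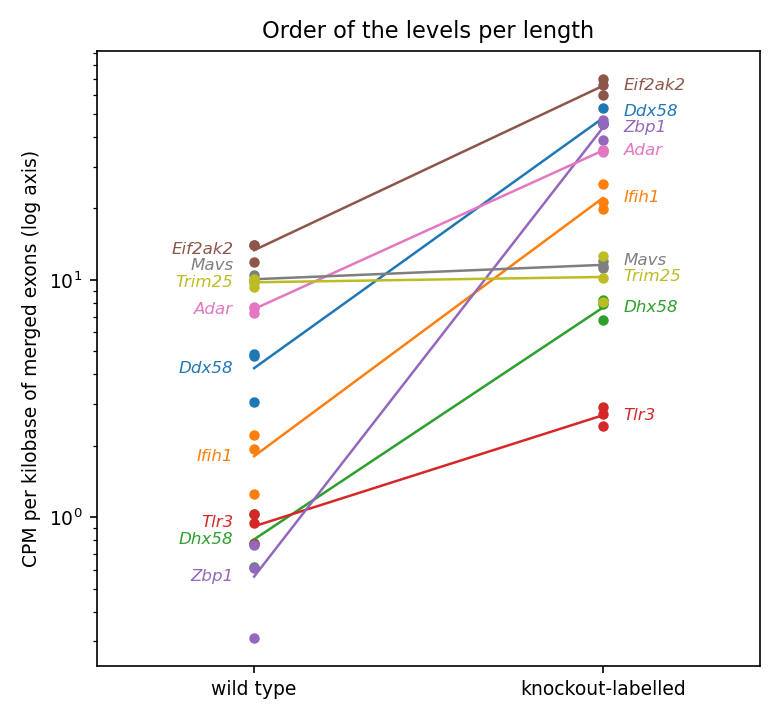
CPM per kilobase of merged exons (log axis) for the 9 genes, with 1 point per library and a line between the group means of wild type (left) and the knockout-labelled group (right). The lines of Ddx58, Ifih1, Zbp1 and Adar cross those of Mavs and Trim25, which are nearly flat.

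Among wild-type libraries the sensors were lowest in the same library. Wild-type replicate 3 was the lowest of its group for 8 of the 9 genes, against 42.5% of all tested genes. On the log2(CPM + 0.1) scale it lay 0.71 below the group mean for Zbp1, written as a deviation of -0.71. The deviations were -0.48 for Ifih1, -0.44 for Ddx58, -0.35 for Dhx58 and -0.23 for Tlr3. For all tested genes the middle 50% of its deviations ran from -0.17 to 0.16 and the lowest 5% lay below -0.53. Adar (-0.05) and Mavs (-0.04) hardly deviated, and Trim25 (0.04) was the exception in sign. This library also had the smallest total, and the part of depth in the deviation was not tested. Without it the rises were 10.0-fold for Ddx58, 10.7-fold for Ifih1, 8.52-fold for Dhx58 and 2.75-fold for Tlr3.

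In the knockout-labelled libraries Ddx58, Ifih1 and Zbp1 deviated less, with SDs of 0.13, 0.18 and 0.15 on the log2 scale, against 0.38, 0.43 and 0.64 in wild type. Trim25 was the reverse, with an SD of 0.32 against 0.05.

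**Figure D4:**
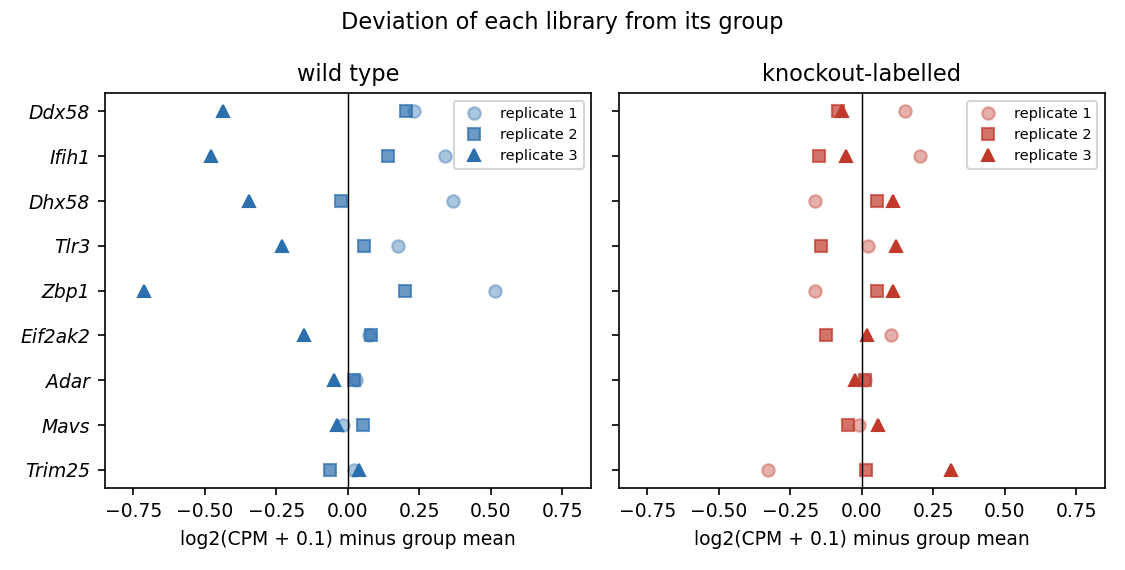
Deviation of each library from its group mean, in log2(CPM + 0.1), for the 9 genes in wild type (left) and the knockout-labelled group (right). Wild-type replicate 3 (triangles) lies left of 0 for every gene but Trim25, down to -0.71 for Zbp1.

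The adaptors, kinases and factors between MAVS and the interferon genes did not move as the sensors did. Of 22 tested, 9 were higher (40.9%) and 4 lower (18.2%), with a median log2 fold change of 0.13. Among all tested genes these shares were 30.7% and 30.2%. The interferon-inducible factor gene Irf7 rose from 1.61 ± 0.813 to 130 ± 3.34 CPM (SD, n = 3 each), 77.4-fold (adjusted p = 3.91e-07). The related factor gene Irf5 rose 11.5-fold, to 2.76 ± 0.699 CPM (adjusted p = 2.92e-05), and the TBK1-binding adaptor gene Tbkbp1 8.85-fold, to 3.77 ± 0.148 CPM (adjusted p = 2.01e-05). The constitutive factor gene Irf3 was higher by 0.38 on the log2 scale (adjusted p = 0.0207), a call lost without knockout replicate 1 (adjusted p = 0.0655) and with library totals as the only scaling (adjusted p = 0.118).

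The genes of the kinases that act on IRF3 and IRF7, Tbk1 and Ikbke, were lower. Tbk1 fell from 84.1 ± 3.98 to 55.0 ± 0.867 CPM (log2 fold change -0.61, SE 0.09; adjusted p = 0.000162). Its relative Ikbke fell from 11.3 ± 0.769 to 5.87 ± 1.25 CPM (log2 fold change -0.95, SE 0.18; adjusted p = 0.00124). Traf3, which links MAVS to these kinases, gave -0.02 on the log2 scale (adjusted p = 0.872), and its sign turned in 3 alternatives. Of the interferon genes, 5 were in the table, with 11 to 25 counts together in a library. Ifnz, the only tested gene among them, gave 0.55 on the log2 scale (adjusted p = 0.29). Ifnb1 was too low to be tested, with 10 counts over the knockout-labelled libraries and 0 over wild type.

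Among 36 enzymes and partners that modify RIG-I, MDA5 or MAVS, 16 were higher (44.4%) and 11 lower (30.6%), with a median of 0.16. The share that was lower is near the 30.2% of all tested genes, and 30.7% of those were higher. The ubiquitin-like modifier gene Isg15 rose 19.8-fold, from 9.73 ± 0.652 to 193 ± 39.5 CPM, and the ubiquitin ligase gene Trim21 11.1-fold, from 3.04 ± 0.860 to 34.2 ± 6.17 CPM (adjusted p = 6.04e-08 and 1.12e-06). The kinase gene Riok3, whose product acts on MDA5, rose 3.63-fold, and the autophagy conjugation gene Atg12 3.14-fold (adjusted p = 5.26e-07 and 5.61e-07). Rnf135, the ubiquitin ligase that modifies RIG-I beside Trim25, had a log2 fold change of -0.21 (SE 0.19; adjusted p = 0.347). Nlrx1, a mitochondrial inhibitor of MAVS signalling chosen after its values were seen, had 4 counts over the knockout-labelled libraries and 274 over wild type (adjusted p = 1.23e-05).

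Of 9 tested genes for endosomal receptors, their adaptors, kinases and chaperones, 6 were lower, 1 was higher and 2 did not pass (median log2 value -0.58). The share lower was 66.7%, against 30.2% of all tested genes, and the share higher 11.1%, against 30.7%. The higher gene, named after its value was seen, was the adaptor gene Myd88 (0.58; adjusted p = 0.0017), which TLR3 does not use. Ticam1, which encodes the TLR3 adaptor TRIF, fell from 12.1 ± 1.36 to 7.66 ± 0.833 CPM (log2 fold change -0.66, SE 0.15; adjusted p = 0.00347). Tlr3 counts per Ticam1 count were 1.92, 1.80 and 1.76 in the knockout-labelled libraries and 0.411, 0.387 and 0.382 in wild type, a 4.65-fold difference without overlap (exact p = 0.1, adjusted p = 0.15). Irak2 and Irak1, kinases that act downstream of other Toll-like receptors, had log2 fold changes of -1.29 and -0.64 (adjusted p = 7.32e-05 and 0.00111). The chaperone gene Hsp90b1 had one of -0.58 (adjusted p = 0.000672). Tlr7, a receptor of single-stranded RNA, fell from 121 to 15 counts over a group (adjusted p = 0.000348), and the transport gene Unc93b1 had 45 and 3 counts and was not tested.

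The list around PKR and eIF2 was higher for 10 of 19 (52.6%) and lower for 5 (26.3%), with a median of 0.34. The all-gene shares were 30.7% and 30.2%. Ppp1r15a and Ppp1r15b, the phosphatase subunits that reverse PKR's action on eIF2 alpha, rose 11.9-fold and 2.64-fold (adjusted p = 3.05e-08 and 1.42e-06). Eif2s1, the PKR substrate itself, rose from 103 ± 25.2 to 217 ± 17.5 CPM, 2.09-fold (adjusted p = 0.000301). Ddit3 and Atf4, factors downstream of eIF2 alpha, rose 11.2-fold and 3.12-fold (adjusted p = 4.18e-08 and 3.18e-06). Other eIF2 alpha kinases are on the list too, and a link of these rises to PKR was not tested. Prkra, a protein activator of PKR, was lower (log2 fold change -0.44; adjusted p = 0.0385), a call lost without knockout replicate 2 or 3 or wild-type replicate 1 or 2 (adjusted p = 0.0923 to 0.167).

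The cell death machinery that ZBP1 engages was higher for 9 of 10 tested genes and lower for 0, with a median of 0.88. Among all tested genes 30.7% were higher and 30.2% lower. Ripk3, the kinase that ZBP1 binds, rose from 14.8 ± 0.806 to 33.9 ± 3.30 CPM, 2.29-fold (adjusted p = 1.48e-05). Mlkl, the membrane-permeabilising substrate of RIPK3, rose from 46.8 ± 2.22 to 97.8 ± 7.86 CPM, 2.09-fold (adjusted p = 8.91e-06). Gsdmd, a pore-forming protein of pyroptosis, rose 3.65-fold (adjusted p = 4.45e-06).

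Among 12 other genes of proteins that bind, cut or edit double-stranded RNA, 4 were higher (33.3%) and 2 lower (16.7%). The share that was higher is near the 30.7% of all tested genes, and 30.2% of those were lower. The median was 0.14 and the highest value 0.75 on the log2 scale. Adarb1, the other active RNA-editing deaminase, had a log2 fold change of -0.23 (SE 0.11; adjusted p = 0.0997). It passed as lower without wild-type replicate 3 (adjusted p = 0.0151), with library totals as the scaling (0.0307) and without both libraries numbered 3 (0.0475). Dicer1, which cuts double-stranded RNA into small RNAs, had one of 0.15 (adjusted p = 0.277), and passed as higher without wild-type replicate 3 (adjusted p = 0.0102) and without both libraries numbered 3 (0.0265). Stau1 and Zfr, which bind double-stranded RNA, and the regulator gene Cdkn2aip were 1.60-fold, 1.53-fold and 1.60-fold higher, and Ilf2 was lower, at -0.71 on the log2 scale (adjusted p = 0.000158, 0.000192, 0.000278 and 0.00016).

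Among 15 further RNA helicases and antiviral RNA-binding proteins, 9 were higher (60%) and 3 lower (20%), with a median of 0.31. The all-gene shares were 30.7% and 30.2%. The helicase gene Ddx60 rose from 5.41 ± 1.82 to 73.1 ± 4.97 CPM, 13.4-fold (adjusted p = 1.00e-06). Znfx1, a helicase-like RNA sensor, rose 4.46-fold and Zc3hav1, the zinc-finger antiviral protein gene, 3.34-fold (adjusted p = 1.28e-07 and 2.51e-07). Dhx29 rose 2.06-fold (adjusted p = 0.000141). Of 10 genes known to limit self double-stranded RNA, 2 were higher (20%) and 1 lower (10%), both below the all-gene shares. These were Pnpt1, the mitochondrial RNA-degrading enzyme (2.98-fold higher; adjusted p = 3.44e-06), Ttc37, of the Ski complex (2.84-fold higher; adjusted p = 1.17e-06), and the silencing factor gene Trim28 (log2 fold change -0.47; adjusted p = 0.00203). Skiv2l, the helicase of the Ski complex, gave -0.22 on the log2 scale (adjusted p = 0.0883) and passed as lower without wild-type replicate 3 (adjusted p = 0.0177), with library totals as the scaling (0.0248) and with at least 1 CPM in 3 libraries (0.0466).

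**Figure D5:**
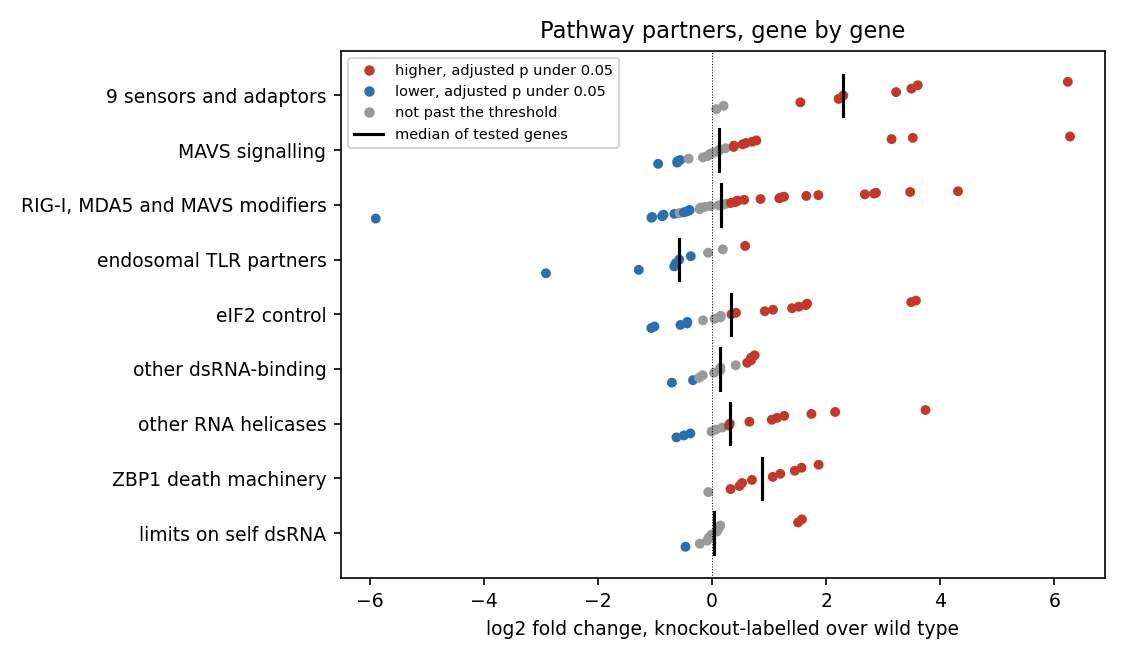
Log2 fold change of each tested gene, knockout-labelled over wild type, for the 9 sensors and adaptors and 8 lists of partners; red and blue points passed the test as higher or lower, grey points did not, and bars are medians. The median is 2.30 for the 9 genes, 0.88 for the ZBP1 death machinery and -0.58 for the endosomal TLR partners.

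For each of the 7 genes that rose, the median change of the genes around it was smaller than its own. The counts below stand beside 30.7% higher and 30.2% lower among all tested genes. Within 1 Mb of Zbp1, 8 of 14 tested genes were higher and 0 lower, with a median log2 fold change of 0.62. Within 1 Mb of Mavs, 21 of 35 were higher and 4 lower, with a median of 0.73, which is above the value of Mavs itself. Around Adar, 36 of 71 were lower and 9 higher (median -0.40), and around Eif2ak2, 12 of 21 were lower and 3 higher (median -0.66), the opposite direction to both genes. The medians around the other 5 genes lay between -0.13 and 0.22. Over whole chromosomes, the median was 0.24 for chromosome 2, which carries Mavs, Zbp1 and Ifih1. It was -0.17 for chromosome 3 (Adar) and -0.17 for chromosome 17 (Eif2ak2). The chromosomes of the remaining genes had medians from -0.14 to -0.02. How much of a local shift is shared by the chromosome was not tested.

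The 6-library profile of the 9 genes, taken as the median over them of log2(CPM + 0.1) minus the wild-type mean, was 2.40, 2.23 and 2.32 in the knockout-labelled libraries and 0.17, 0.06 and -0.23 in wild type. By root mean square distance over the 6 libraries, the protein-coding genes nearest to it were Ogfr at 0.054, Vcan at 0.071, Ntn1 at 0.088, Hgsnat at 0.088 and Tmem229b at 0.097 on the log2 scale. Ogfr encodes an opioid growth factor receptor, Vcan the matrix proteoglycan versican, Ntn1 the guidance protein netrin 1 and Hgsnat a lysosomal acetyltransferase. They rose 5.0-fold, 4.85-fold, 4.95-fold, 4.65-fold and 6.07-fold, a size that follows from choosing them by distance to this profile. Tmem229b rests on 26 counts over wild type.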

How the data were processed

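The authors deposited raw whole-number read counts per gene for 6 libraries, per the labels from Trizol-extracted total RNA and a strand-marking kit. The submitters' processing notes name STAR 2.5.1b and mm10. No counting program or strand setting is given in the sources used here. Columns were matched to samples by title, and 0 rows lacked a gene name. Counts were tested in R 4.3.3 with edgeR 4.0.16 (filterByExpr, TMM scaling, robust quasi-likelihood fit on genotype alone, two-sided, Benjamini-Hochberg over 15039 genes, threshold 0.05). SEs are the log2 fold change over the root of F. CPM use TMM-scaled totals. Ratios had 0.5 added to each count. Coordinates and promoters came from RefSeq (GRCm38.p6), with 9 of 9 genes matched for coordinates, and exon lengths from GENCODE M21. The alternatives used DESeq2 1.42.0, limma 3.58.1, other scalings and filters, a replicate block and libraries left out. On simulated data the count test recovered 43.8% of 64 genes changed 1.5-fold, 81.5% of 65 changed 2-fold and 100% of 71 changed 4-fold. Of its 157 calls, 5 were false. Far fewer genes changed there than were called here, so the simulation does not check the test under so broad a change.

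The 9 genes, the partner lists and the alternatives were chosen with earlier results of these data known. Named genes are all 9, up to 4 tested genes of smallest p per list, a fixed set of partners, Ngly1 and the 5 nearest profiles. Nlrx1, Myd88 and the cell type markers named fall outside this rule, and a result that the rule would name is not reported here. No test of a list as a whole was made.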

Additional observations from a re-analysis of the deposited data

How the results depend on the processing

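The 7 calls among the 9 genes held in each of 15 alternative analyses, and 0 of the 9 were lower in any of them. Over these, log2 fold changes ran from 5.94 to 6.51 for Zbp1, 3.32 to 3.60 for Ddx58, 3.42 to 3.78 for Ifih1 and 1.40 to 1.64 for Tlr3. Mavs stayed short of the threshold in all, at 0.08 to 0.24 (adjusted p = 0.0774 to 0.514). Replicate numbers are shared between the groups, and the labels do not say whether they pair the samples. Same-numbered libraries correlated at 0.096, 0.014 and 0.209 in their deviations from the group means. Knockout replicates 1 and 2 correlated best with wild-type replicates 2 and 1 (0.149 and 0.036), and knockout replicate 3 with wild-type replicate 3. The rRNA share was highest in replicate 3 of each group (3.73% knockout-labelled and 2.82% wild type). A batch shared by number was not tested. With the replicate number as a block, 4690 genes were higher and 4563 lower, and 7 of the 9 were higher. Scaling by library totals moved the all-gene median from -0.04 to -0.16 (log2), and the share of calls that were higher from 50.4% to 42.4%.

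Sign changes were limited to genes that did not pass. Trim25 gave -0.044 with library totals, -0.062 without both libraries numbered 3 and -0.075 without knockout replicate 3. Traf3 gave 0.0067 with no low-count filter, 0.096 without both libraries numbered 3 and -0.097 to 0.10 with each library left out. Ngly1 gave 0.00085 with the replicate block, 0.024 with no low-count filter, 0.0049 without structural RNA genes, and -0.18 to 0.10 with each library left out. Within 2 Mb, the neighbour medians of Dhx58 and Trim25 were -0.11 and -0.0029.

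Small list counts moved. Endosomal partners called higher were 2 without both libraries numbered 3, and 1 to 2 with each library left out. Other double-stranded RNA binding genes called lower were 4 with library totals only and 4 without both libraries numbered 3. Genes that limit self RNA called lower were 2 with at least 1 CPM in 3 libraries and 2 with library totals only, and 1 to 2 with each library left out. With wild-type replicate 3 left out, the endosomal and self RNA counts were 2 each. With no low-count filter 1 interferon gene, Ifnb1, was called higher. The causes were not tested. In wild type Zbp1 had the fewest counts of the 9 genes, 224 over the group and 30 in replicate 3.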
